A study of Arabidopsis thaliana with 12 samples.

Results

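Transcript levels in roots of chl1-5 were compared with those in wild-type roots after 30 min in nitrate (T0.5). The 6 arrays of these groups, 3 per genotype, were taken from 12 by the genotype and time in their titles, and arrays with the same replicate number were paired. The chl1-5 T0.5 group held roots of 10-day-old Arabidopsis thaliana plants carrying the chl1-5 allele in the Columbia background, moved for 30 min to medium with 25 mM KNO3. The wild-type T0.5 group held roots of Columbia plants of the same age, moved to the same medium. Plants of both genotypes had grown in separate areas of a shared mesh with 12.5 mM ammonium succinate as the nitrogen source, had spent 3 h in that salt at pH 5.5 and had been washed. The ammonium salt was absent from the nitrate medium, so both groups had lost it for 30 min as well. The arrays from before nitrate (T0), 3 of chl1-5 and 3 of wild type, entered the fit and are given beside the results. Each replicate was an independent experiment with about 900 seedlings pooled from 9 vessels, and all chl1-5 plants were of a single mutant allele.

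CHL1, also named NRT1.1 or NPF6.3, is a nitrate transporter of the plasma membrane that also acts as a nitrate sensor, and chl1-5 is known as a deletion allele of it. Roots given nitrate after growth on ammonium switch on genes for nitrate uptake, nitrate and nitrite reduction, regulators of these genes, and enzymes that supply reductant and carbon skeletons for assimilation. The oxidative pentose phosphate pathway yields the NADPH used as reductant in root plastids, and glycolysis yields carbon skeletons for amino acids. The comparison asks how transcript levels of roots of a CHL1 mutant differ from wild type once nitrate has been given.

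The values were fluorescence intensities on a linear scale, 1 signal per probe set, summarized by the authors with MAS5. After trimming, the array means lay between 499.4 and 500.6, so the arrays had been scaled to a common level, and the number of arrays limits the precision. At T0.5 the 3'/5' ratio of the GAPDH control probe sets was 1.19 to 1.23 in chl1-5 and 1.03 to 1.38 in wild type. That of ubiquitin was 1.99 to 2.1 in chl1-5 and 2.07 to 2.24 in wild type, and that of actin 9.72 to 15.1 in chl1-5 and 10.5 to 12.6 in wild type. The array medians were 180.8 to 191.3 in chl1-5 and 175.9 to 185.5 in wild type. The median SD within a group was 0.18 on the log2 scale for both genotypes over the 14291 probe sets tested. CHL1 had no named probe set, so the mutated gene was not checked here. Of the 14291 probe sets, 7709 carried the name of 1 gene, and the others are given by their probe set. Of the markers listed for root tissue, 3 of 9 had a named probe set, and 1 of the 13 for shoot tissue. The root hair expansin EXP7 had signals of 987.8, 754.3 and 629.8 in chl1-5 and 904.7, 627.0 and 739.5 in wild type, and EXP18, another root hair expansin, lay at 646.4 to 877.9 in chl1-5 and 743.6 to 845.8 in wild type. CO2, a marker of root cortex, was at 43.1 to 59.6 in chl1-5 and 20.7 to 48.8 in wild type, below the filter on dim probe sets. RCA, the Rubisco activase gene of green tissue, was at 557.7 to 657.7 in chl1-5 and 582.8 to 684.2 in wild type.

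After nitrate, the transcripts called different between chl1-5 and wild-type roots were mostly lower in chl1-5. Of 14291 probe sets, 60 (0.420%) passed limma, fitted over all 12 arrays, at a Benjamini-Hochberg adjusted p under 0.05, of which 57 (0.399%) were lower and 3 (0.0210%) higher in chl1-5. Differences of at least 2-fold were reached by 21 of the lower and 1 of the higher probe sets. A named gene stood behind 23 of the 60, 20 lower and 3 higher. All 60 had the same sign in all 3 replicate pairs, from which they were called. The arrays of both genotypes did not overlap for 56 of the 57 lower and 2 of the 3 higher probe sets, where over all probe sets tested 3.00% lay wholly lower and 3.46% wholly higher in chl1-5. Before nitrate, 4 probe sets (0.0280%) passed, and all 4 passed at T0.5 too, on other arrays of the same experiments. Both tests came from the same fit and share its estimate of the spread, so they are not independent. Over all probe sets tested, those called included, 401 were lower and 397 higher at an unadjusted p under 0.05. These are whole roots, in which fewer cells of a type and less RNA per cell cannot be told apart.

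**Figure D1:**
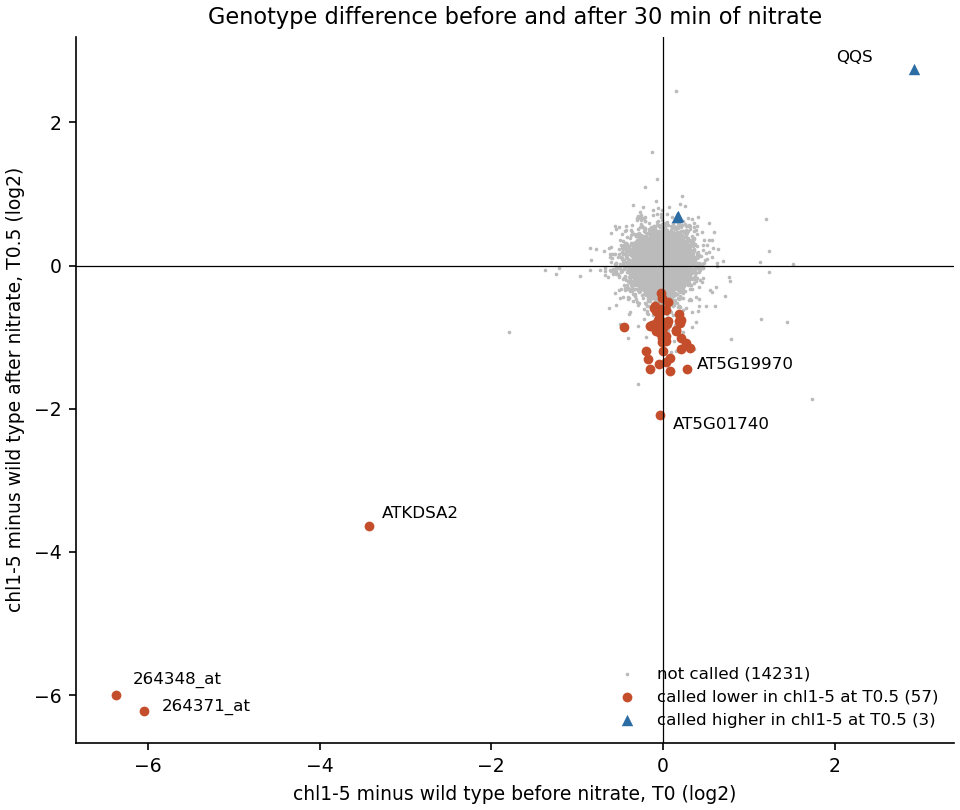
Each point is a probe set, with the chl1-5 minus wild-type difference before nitrate on the x axis and after 30 min of nitrate on the y axis, both as log2 differences of 3 arrays per genotype. Most of the 57 called lower (red circles) lie below the line at 0 with no matching shift before nitrate, and ATKDSA2, QQS, 264371_at and 264348_at stand apart at both times.

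The 54 lower probe sets that did not pass before nitrate had a median difference of -0.87 on the log2 scale after nitrate, from -2.09 to -0.39. Their signals in chl1-5 were a median of 54.5% of those in wild type, from 23.5% to 76.3%. Before nitrate the same 54 had a median difference of -0.01, with 33 below and 21 above 0, and 50 of them were within 0.25 of 0. The 54 were chosen as not passing before nitrate and as called after it, so this contrast is partly set by the choice. In the direct test of the change in difference, given below, 16 of the 57 lower probe sets passed. From T0 to T0.5 the 54 probe sets changed by a median of 1.02 in chl1-5 and 1.93 in wild type, 52 upward in chl1-5 and 54 in wild type. These changes share the T0.5 arrays with the genotype difference and are given as values. The medians of the 3 pairs were -0.93, -0.89 and -0.87, a description of the same pairs that gave the calls.

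**Figure D2:**
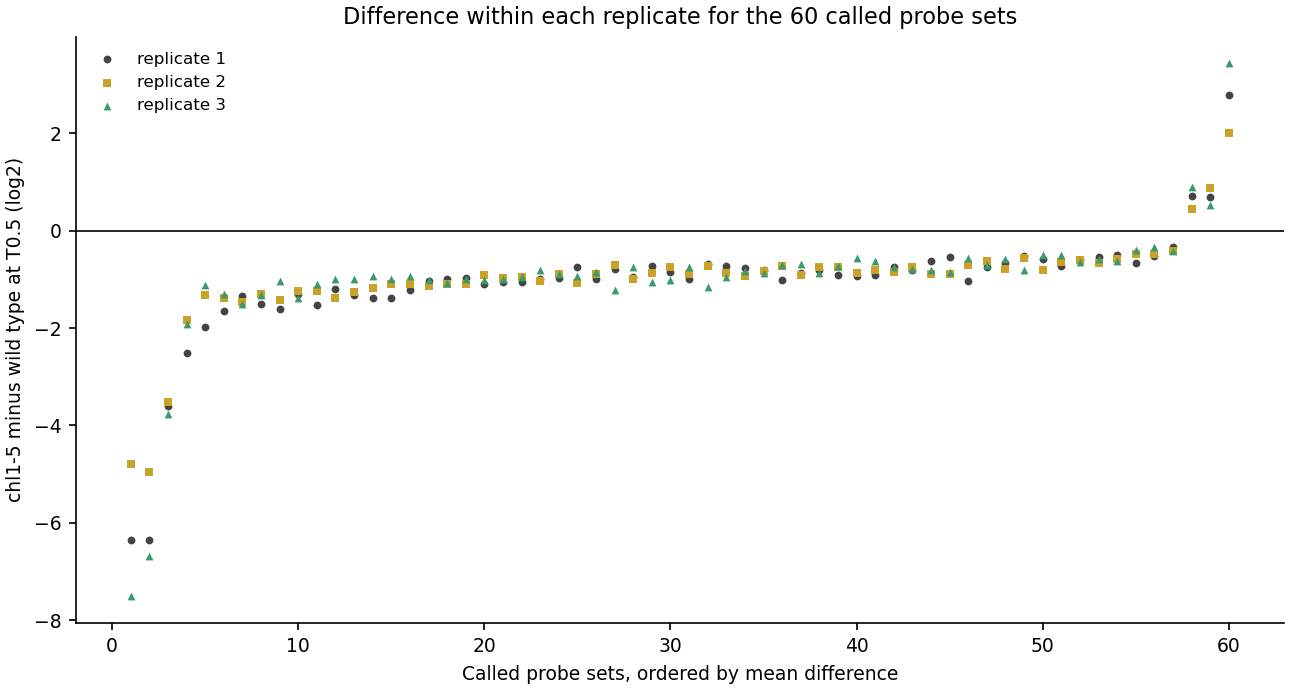
The chl1-5 minus wild-type difference at T0.5 (log2, y axis) is drawn for each replicate pair of the 60 called probe sets, ordered along the x axis by their mean difference. The 3 symbols of each probe set, 1 per pair, lie on the same side of 0, and they spread most for the probe sets at the lower left and the upper right.

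The count of calls moved with the arrays fitted, the pairing and the replicates kept. In a fit of the 6 T0.5 arrays alone, with the block, 156 probe sets (1.09%) passed, 131 lower and 25 higher. With no replicate block 32 probe sets (0.224%) passed, 31 lower and 1 higher, and all 32 were among the 60. Without all arrays of replicate 1, 2 or 3 the count was 45, 6 and 25, with 42, 6 and 25 of the 60 still called, and without the wild-type T0.5 array of replicate 2 it was 39.

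Enzymes of carbon metabolism were among the lower transcripts. Of 16 listed genes for reductant and carbon skeletons, 7 were tested. Of these, 4 were called lower in chl1-5 than in wild type, GLYK, PGM, PGD3 and PGD1, while the other 3 did not pass. The list was written with earlier results of these data known, so these counts describe its members and are not a test. Over all probe sets tested 0.399% were called lower. The median of the 7 was -0.45, where the median of all probe sets tested was 0.02. GLYK (AT1G80380), the glycerate kinase that returns photorespiratory glycerate to phosphoglycerate, had signals of 2409, 3767 and 4043 in chl1-5 roots, against 6242, 8086 and 8031 in wild type. Every chl1-5 array lay below every wild-type array, a difference of -1.16 (SE 0.12, n = 3 per genotype, adjusted p = 0.00104). From T0 to T0.5 GLYK rose in both genotypes, by 3.24 in chl1-5 and 4.71 in wild type. Before nitrate its mean signal was 360.0 ± 94.6 in chl1-5 and 282 ± 19.3 in wild type (SD, n = 3), a difference of 0.32 (adjusted p = 1.00).

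PGM (AT1G78050), a phosphoglycerate mutase that interconverts phosphoglycerates in glycolysis, had 2834, 2879 and 3115 in chl1-5 roots, against 5513, 5748 and 5246 in wild type. The groups stood well apart, and chl1-5 was 1.87-fold lower (log2 -0.90, SE 0.13, adjusted p = 0.00797). The difference in PGM before nitrate was 0.15. From T0 to T0.5 PGM changed by 3.67 in chl1-5 and 4.72 in wild type, and passed limma in both.

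PGD3 (AT5G41670), a 6-phosphogluconate dehydrogenase of the oxidative pentose phosphate pathway, had 3860.1, 4508 and 2553 in chl1-5 roots, against 6361, 8174 and 5297 in wild type. In both genotypes replicate 2 was the highest and replicate 3 the lowest, and within each pair chl1-5 was the lower (log2 -0.88, SE 0.12, adjusted p = 0.00484). PGD1, another enzyme of the same step, had 8178, 10371 and 10502 in chl1-5 roots, against 11797, 14543 and 13324 in wild type. Its fall was smaller, to 73.0% of wild type (log2 -0.45, SE 0.07, adjusted p = 0.00909), though the groups did not overlap. PGD2, the third gene for this enzyme, differed by 0.00 (SE 0.06), with 5208 to 6566 in chl1-5 and 5643 to 6294 in wild type. TRA1, a transaldolase, was at -0.11 (SE 0.11) and cICDH, a cytosolic isocitrate dehydrogenase that makes 2-oxoglutarate, at 0.00 (SE 0.06); neither passed.

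A pair of further carbon enzymes, chosen after their values were seen, were also lower in chl1-5 than in wild type. MDH (AT3G47520), a malate dehydrogenase of plastids, had 2959, 3119 and 2403 in chl1-5 roots, against 4266, 4604 and 4192 in wild type (log2 -0.63, SE 0.09, adjusted p = 0.00424). AT5G51830, which encodes a fructokinase feeding fructose into glycolysis, had 875.4, 1009 and 756.2 in chl1-5 roots, against 1576, 1702 and 1536 in wild type (log2 -0.88, SE 0.10, adjusted p = 0.00198). Both lay lower on every chl1-5 array than on any wild-type array. The calls for MDH and AT5G51830 were lost without all arrays of replicate 2 or 3 (adjusted p up to 0.226 and 0.146).

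The calls for GLYK, PGD3 and PGD1 were lost without the replicate block (adjusted p = 0.0744, 0.209 and 0.418), and that for PGM was lost without the T0.5 array of replicate 1 or 2 of either genotype (adjusted p up to 0.133 over all alternatives, and up to 0.131, 0.221 and 0.418 for GLYK, PGD3 and PGD1). PGD3 was also not called without the wild-type array of replicate 2, nor PGD1 without the replicate 1 array of either genotype or the wild-type array of replicate 2. Without all arrays of replicate 2, GLYK and PGD3 were not called either. PGM and PGD1 were not called without all arrays of any 1 replicate number. The signs of GLYK, PGM, PGD3 and PGD1 held under all alternatives run.

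**Figure D3:**
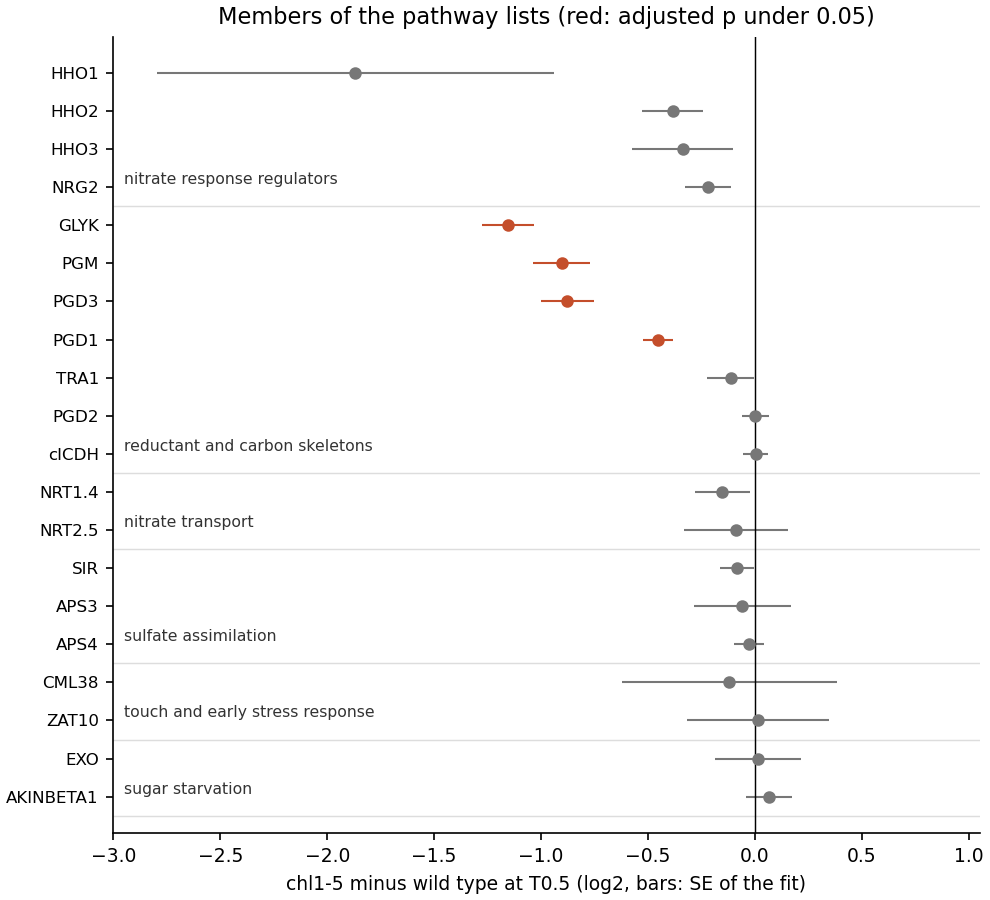
The chl1-5 minus wild-type difference at T0.5 (log2, x axis) is shown for members of the pathway lists, with bars for the SE of the fit and red for an adjusted p under 0.05. GLYK, PGM, PGD3 and PGD1 lie left of 0 in red, and the bar of HHO1 is the longest.

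Of the listed regulators of the nitrate response, 4 of 29 genes were tested and none passed. All 4 were negative, with a median of -0.36, where 6403 of all 14291 probe sets tested were negative. This list was written with earlier results of these data known, and the shared sign was not tested. HHO1, HHO2 and HHO3 encode related MYB-type transcription factors of the GARP class that nitrate induces in roots, and NRG2 encodes a positive regulator of nitrate signalling. HHO1 had 78.4, 125.0 and 112.0 in chl1-5 roots, against 367.0, 485.9 and 299.8 in wild type. The highest chl1-5 array was below the lowest wild-type array, but the difference of -1.87 had an SE of 0.93 and an adjusted p of 0.949. Its signals before nitrate were very dim, 14.7 ± 13.6 in chl1-5 and 8.70 ± 13.0 in wild type (SD, n = 3), and their spread on the log2 scale enters that SE. With dim signals raised to a floor of 16 the HHO1 difference passed (adjusted p = 0.0167), as it did with a floor of 64 (adjusted p = 0.00063) and in a fit of the T0.5 arrays alone (adjusted p = 2.22e-05), while over all alternatives its adjusted p ran up to 1.00.

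HHO2 had 896.6, 1400.1 and 1372 in chl1-5 roots, against 1264, 1989 and 1524 in wild type, lower in every pair but overlapping between the groups (log2 -0.38, SE 0.14, adjusted p = 0.750). HHO3 had 1826, 3102 and 3883 in chl1-5 roots, against 2767, 3837 and 4181 in wild type, with the replicates of each genotype further apart than the genotypes (log2 -0.34, SE 0.24, adjusted p = 0.999). NRG2 differed by -0.22 (SE 0.11, adjusted p = 0.945).

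Called genes outside the regulator list included a bZIP factor, a RING finger gene and a CBS domain gene, each lower in chl1-5 than in wild type. The bZIP transcription factor gene bZIP58 (AT1G13600) had 310.4, 197.3 and 294.0 in chl1-5 roots, against 635.6, 435.2 and 596.9 in wild type. Replicate 2 was the lowest in both genotypes, and chl1-5 stood at 47.8% of wild type (log2 -1.07, SE 0.15, adjusted p = 0.00483). It was the one called among 15 bZIP genes tested, whose median was 0.06, where 0.399% of all probe sets tested were called lower. AT1G72220, a gene of the RING finger family, which holds many ubiquitin ligases, had 148.8, 192.3 and 201.1 in chl1-5 roots, against 469.9, 503.4 and 492.9 in wild type (log2 -1.45, SE 0.16, adjusted p = 0.00121). AT5G53750, which encodes a protein with CBS domains, had 162.9, 182.5 and 192.7 in chl1-5 roots, against 399.8, 433.2 and 503.9 in wild type (log2 -1.31, SE 0.16, adjusted p = 0.00219). For both genes every chl1-5 array lay far below every wild-type array. The call for AT1G72220 was lost without all arrays of replicate 2 (adjusted p = 0.0956). That for AT5G53750 was lost without those of replicate 2 or 3 (adjusted p up to 0.131).

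AT3G16560, a gene of the protein phosphatase PP2C family that was chosen after its values were seen, had 719.2, 697.7 and 672.7 in chl1-5 roots, against 1359, 1166 and 1117 in wild type (log2 -0.80, SE 0.11, adjusted p = 0.00483). The calls for bZIP58 and AT3G16560 were lost without the replicate block (adjusted p = 0.0733 and 0.0634, and up to 0.194 and 0.221 over all alternatives), and bZIP58 was also not called without the wild-type array of replicate 1. Neither gene was called without all arrays of replicate 2 or of replicate 3, nor AT3G16560 without those of replicate 1.

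Among the called named genes that changed from T0 to T0.5, the largest difference belonged to AT5G01740. It had 217.0, 339.0 and 356.5 in chl1-5 roots, against 1236, 1212 and 1351 in wild type. The mutant signals were far below the wild-type ones in each pair, 4.26-fold lower on average (log2 -2.09, SE 0.16, adjusted p = 8.55e-05). Before nitrate the signals were alike in size, 98.0 ± 21.3 in chl1-5 and 102.0 ± 29.5 in wild type (SD, n = 3).

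AT5G19970 had 700.0, 700.0 and 606.7 in chl1-5 roots, against 1783, 1944 and 1719 in wild type. Both groups were tight, and chl1-5 was 2.72-fold lower (log2 -1.44, SE 0.10, adjusted p = 8.55e-05). The calls for AT5G01740 and AT5G19970 held in all 18 alternatives, with adjusted p up to 0.0141 and 0.0243.

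AT2G48080, of the 2-oxoglutarate and iron-dependent oxygenase family, had 1100.3, 1864 and 1707 in chl1-5 roots, against 2849.7, 4237 and 3258 in wild type. Replicate 2 was the highest in both genotypes, and all chl1-5 arrays were below all wild-type arrays (log2 -1.16, SE 0.14, adjusted p = 0.00241). AT1G73920, a gene of the alpha/beta hydrolase and lipase family, had 948.2, 1111 and 1148 in chl1-5 roots, against 1977, 2141 and 2226 in wild type (log2 -0.99, SE 0.12, adjusted p = 0.00192). It changed from T0 to T0.5 by 0.31 in chl1-5 and 1.34 in wild type. The call for AT1G73920 was lost without all arrays of replicate 2 or 3 (adjusted p up to 0.0774).

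AT4G02920 had 1302, 823.5 and 776.4 in chl1-5 roots, against 2168, 1735 and 1481 in wild type. Its groups did not overlap, but replicate 1 stood high in both, and the call was near the threshold (log2 -0.91, SE 0.17, adjusted p = 0.0424). It was lost in 10 of 18 alternatives, among them leaving out the T0.5 array of chl1-5 replicate 2 or 3 or of wild-type replicate 1 or 2. AT2G48080 was not called without the replicate block (adjusted p = 0.364, the highest over its alternatives), nor without all arrays of replicate 2.

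The remaining 4 named genes called lower in chl1-5 lay outside the naming rule and were chosen after their values were seen. They were AT3G18560 (log2 -0.82, SE 0.12), AT1G67920 (log2 -0.61, SE 0.10), AT2G16660 of the major facilitator family of transporters (log2 -0.63, SE 0.10) and AT4G08410 (log2 -0.81, SE 0.13), with adjusted p from 0.00899 to 0.0175. Without the replicate block the last 3 of these did not pass, and without all arrays of replicate 2 or of replicate 3 none of the 4 did. Of single T0.5 arrays left out, AT3G18560 was not called without wild-type replicate 2, AT1G67920 without any array other than chl1-5 replicate 1, AT2G16660 without any other than wild-type replicate 3, and AT4G08410 without chl1-5 replicate 2 or 3 or wild-type replicate 1 or 3. AT4G08410 was measured by a probe set marked as open to cross-hybridisation, and it changed by -0.66 in chl1-5 and 0.13 in wild type from T0 to T0.5. Among the 35 unnamed lower probe sets that did not pass before nitrate, the largest difference was that of 259365_at, with 983.8, 1553 and 2189 in chl1-5 roots, against 3876, 3854 and 4739 in wild type. The chl1-5 arrays of 259365_at were more than 2-fold apart among themselves (log2 -1.47, SE 0.26, adjusted p = 0.0272), and its call was lost in 9 of 18 alternatives, among them those without the T0.5 array of replicate 1 or 3 of chl1-5 or of replicate 1 or 2 of wild type.

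**Figure D4:**
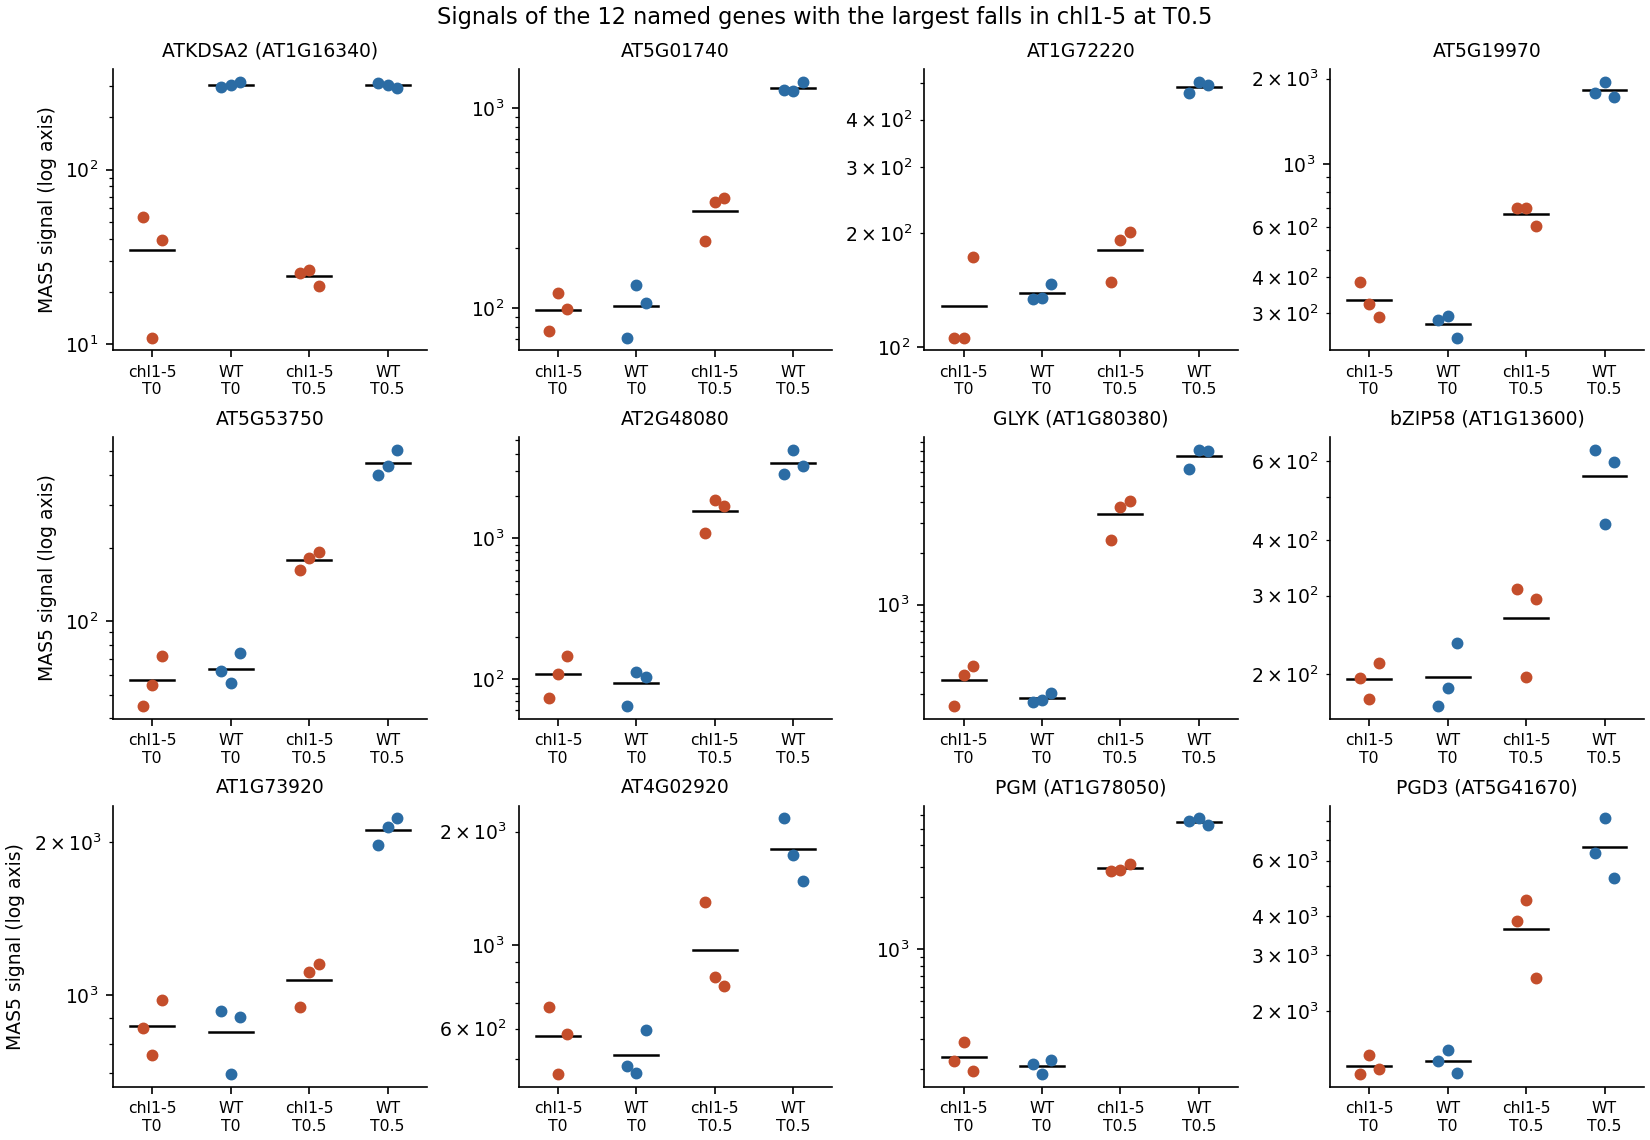
MAS5 signals are drawn on log axes, 1 panel per gene, for the 12 named genes furthest below wild type in chl1-5 at T0.5. In each panel chl1-5 is in red left of wild type in blue at T0 and at T0.5, with a bar at the group mean (n = 3). For 11 of the genes the genotypes lie close together at T0 and apart at T0.5, and ATKDSA2 is apart at both times.

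A set of 4 probe sets differed by similar amounts before and after nitrate. ATKDSA2 (AT1G16340), which encodes a synthase of KDO, a sugar acid of the pectin rhamnogalacturonan in cell walls, had 25.7, 26.7 and 21.4 in chl1-5 roots, against 313.5, 306.2 and 292.5 in wild type. It was dim in chl1-5, meaning under the 40th percentile of the array on all 3 arrays, so the size of its difference (log2 -3.63, SE 0.41, adjusted p = 0.00144) rests on weak signals and was -2.25 with a floor of 64. The difference before nitrate was -3.43 (adjusted p = 0.00985), on other arrays of the same experiments and in the same fit. Without replicate 3 the T0.5 call was lost (adjusted p = 0.0565, the highest over its alternatives).

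The unnamed probe set 264371_at had 53.1, 118.5 and 14.8 in chl1-5 roots, against 4363, 3276 and 2697 in wild type (log2 -6.22, SE 0.47, adjusted p = 8.55e-05). The unnamed 264348_at had 93.8, 229.4 and 53.6 in chl1-5 roots, against 7637, 7124 and 5492 in wild type (log2 -5.99, SE 0.47, adjusted p = 8.55e-05). Both lay under the array's 40th percentile on the chl1-5 arrays of replicates 1 and 3 and above it on that of replicate 2, and with a floor of 64 the differences were -5.43 and -5.91. Before nitrate they were -6.04 and -6.37. From T0 to T0.5, 264348_at changed by 2.36 in chl1-5 and 1.98 in wild type, while 264371_at changed by -0.39 and -0.21.

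QQS (AT3G30720), an orphan gene known to affect starch content, was the one called probe set higher in chl1-5 by over 2-fold, with 217.3, 253.8 and 225.5 in chl1-5 roots, against 31.3, 63.1 and 20.8 in wild type. It was dim in wild type, and the difference of 2.75 (SE 0.35, adjusted p = 0.00266) became 1.86 with a floor of 64. Before nitrate it was 2.92 (adjusted p = 0.00985). Without all arrays of replicate 2 the T0.5 call of QQS was lost (adjusted p = 0.0904).

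The other higher transcripts belonged to genes that fell from T0 to T0.5 in both genotypes. AT1G64590, of the Rossmann-fold dehydrogenase family, had 2858, 2685 and 1369 in chl1-5 roots, against 1777, 1466 and 949.8 in wild type. The lowest chl1-5 array lay within the wild-type range, but in each pair chl1-5 was the higher (log2 0.70, SE 0.11, adjusted p = 0.0165). AT4G33040, a gene of the glutaredoxin family of thiol redox proteins, had 464.7, 437.7 and 360.5 in chl1-5 roots, against 285.0, 322.3 and 192.4 in wild type (log2 0.68, SE 0.13, adjusted p = 0.0488). From T0 to T0.5 AT1G64590 changed by -1.37 in chl1-5 and -1.89 in wild type, and AT4G33040 by -0.63 in chl1-5 and -1.15 in wild type. Both calls were lost without the replicate block (adjusted p = 1.00, the highest over their alternatives), in 8 and 13 of 18 alternatives in all. For AT1G64590 these included leaving out the T0.5 array of chl1-5 replicate 1 or 2 or of wild-type replicate 2 or 3, and for AT4G33040 any T0.5 array other than that of chl1-5 replicate 2.

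The next 9 named genes by p among those higher in chl1-5 did not pass, with differences from 0.54 to 0.72 and adjusted p from 0.110 to 0.302. They included LBD16, a transcription factor gene of lateral root initiation, with 368.4, 450.5 and 380.3 in chl1-5 roots, against 289.8, 257.9 and 276.7 in wild type (log2 0.54, SE 0.13). WRKY47, a transcription factor gene, had 263.8, 268.4 and 427.7 in chl1-5 roots, against 175.3, 187.3 and 296.6 in wild type (log2 0.55, SE 0.14). The arrays of LBD16 did not overlap, those of WRKY47 did, and neither can be called at this number of arrays. The largest of the 9 was AT3G62630 (log2 0.72, SE 0.15).

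Whether a difference after nitrate was of another size than before was tested directly, as the T0.5 difference minus the T0 difference. This passed for 17 probe sets (0.119%), all negative, and 7 of them carried a gene name. For AT5G19970 the change in difference was -1.72 (SE 0.14, adjusted p = 0.00075), with a T0.5 difference of -1.44 beside a T0 difference of 0.28. For AT5G01740 it was -2.05 (SE 0.23, adjusted p = 0.00591), and for GLYK -1.47 (SE 0.17, adjusted p = 0.00724). AT2G48080 (-1.38, adjusted p = 0.0297), AT1G73920 (-1.03, adjusted p = 0.0436) and AT3G16560 (-0.9997, adjusted p = 0.0388) passed as well. The seventh, AT1G49000, which did not pass at T0.5 (log2 -1.03, adjusted p = 0.0531) and was chosen after its values were seen, had the change of -1.83 with a T0 difference of 0.80. For PGM (-1.05, adjusted p = 0.0819) and AT1G72220 (-1.29, adjusted p = 0.0687) the test did not pass. Nor did it for PGD3 (-0.83, adjusted p = 0.181) and PGD1 (-0.44, adjusted p = 0.230). AT5G53750 (-1.13, adjusted p = 0.135), AT5G51830 (-0.84, adjusted p = 0.0717) and MDH (-0.57, adjusted p = 0.191) did not pass either. The differences of these genes are thus not shown to be larger after nitrate than before. With no replicate block 5 probe sets passed, AT5G19970 alone among the named genes. Without any 1 T0.5 array 2 to 15 passed, the fewest without that of wild-type replicate 2. Without all arrays of 1 replicate number, 0 to 3 did.

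The size of the genotype difference was next described by how strongly a probe set changed from T0 to T0.5 on average over both genotypes. Over this step nitrate was given and ammonium was taken away, so their parts in this average response cannot be told apart. The average response shares the T0.5 arrays with the genotype difference, so the values describe these arrays and were not tested. That response passed for 3452 probe sets (24.2%), from which the rising and falling sets were taken. Among the 86 probe sets with an average rise of at least 4-fold, the median T0.5 difference was -0.51 and 20 (23.3%) were called lower. In the 272 with a rise between 2-fold and 4-fold the median was -0.13, and 16 (5.88%) were called lower. In the 13839 with an average change under 2-fold the median was 0.02, with 21 (0.152%) called lower and 2 higher. In the 89 with an average fall of at least 2-fold the median was 0.25, and 1 was called higher. Over all probe sets tested 0.399% were called lower and 0.0210% higher. Before nitrate the medians of these sets were -0.02, -0.02, -0.01 and 0.05. The pairs of the first set had medians of -0.66, -0.46 and -0.31, and without the chl1-5 T0.5 array of replicate 1 its median was -0.26.

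**Figure D5:**
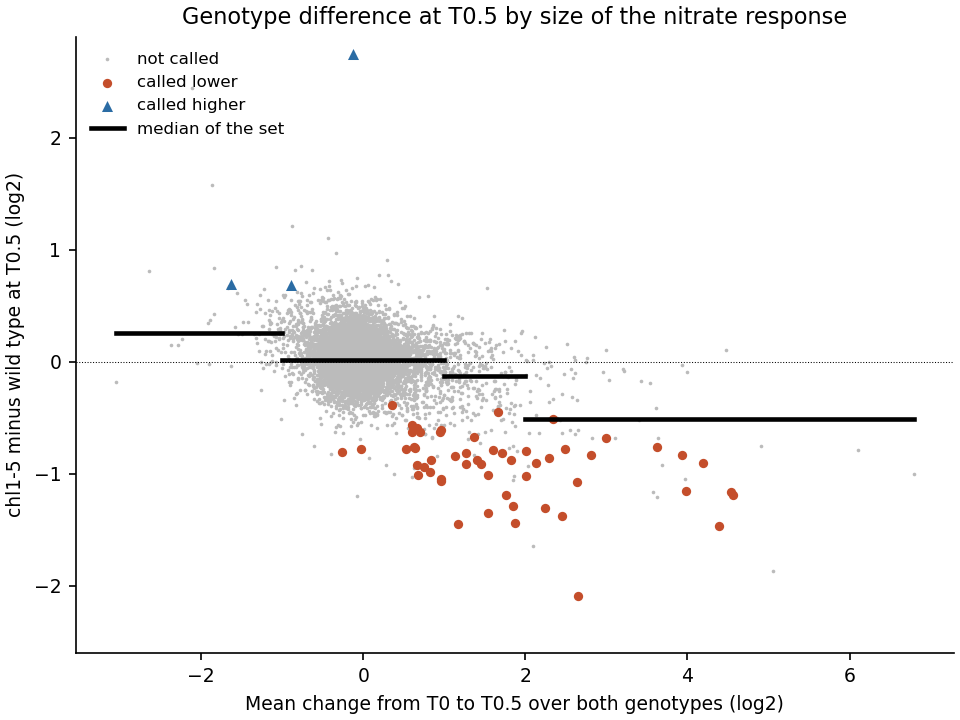
The chl1-5 minus wild-type difference at T0.5 (log2, y axis) is plotted against the mean change from T0 to T0.5 over both genotypes (log2, x axis) for each probe set, with black bars at the median of each response set. The bars step down from 0.25 on the left to -0.51 on the right, and 264371_at, 264348_at and ATKDSA2 lie below the plotted range.

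Other gene groups showed no member that passed. Of 18 nitrate transport genes 2 were tested, NRT1.4, a transporter of leaf petioles, at -0.15 (SE 0.13) and NRT2.5, a high-affinity transporter, at -0.09 (SE 0.24). The sulfate assimilation genes SIR, a sulfite reductase, and APS3 and APS4, ATP sulfurylases, lay between -0.08 and -0.03. The touch genes CML38, a calmodulin-like gene, and ZAT10, a zinc finger gene, were at -0.12 and 0.02, with large SE of 0.50 and 0.33. CML38 had 237.2, 1071 and 1582 in chl1-5 and 324.0, 1160.2 and 1375 in wild type, so its replicates differed far more than its genotypes. The sugar starvation genes EXO and AKINBETA1 were at 0.01 and 0.07, and GH3.5, which conjugates auxin, at 0.18 (SE 0.11). Of the loci looked up near CHL1 on the chromosome, only AT1G12120 and AT1G12080 had a named probe set that was tested. They were at -0.13 (SE 0.13) and -0.10 (SE 0.16). The other loci near CHL1 were not measured by name, so these values do not describe the region as a whole.

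Most families defined by gene symbol had medians near that of all probe sets. The 27 UDP-glycosyltransferases tested had a median of 0.03, the 20 expansins and xyloglucan endotransglucosylases 0.01, the 10 glutathione transferases 0.03, the 7 SWEET sugar transporters 0.01, the 11 autophagy genes 0.05 and the 6 WRKY factors 0.13. The 14 plastid-encoded ribosomal proteins had a median of 0.16, with 11 above 0. The 12 cytochrome P450 genes had a median of 0.16 too, and their highest member was CYP718 at 2.44, which did not pass (SE 0.69, adjusted p = 0.377). CYP718 had 193.8, 85.2 and 68.4 in chl1-5 roots, against 113.2, 5.3 and 11.7 in wild type, overlapping and dim on most arrays.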

How the data were processed

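Root RNA was hybridised to one-colour ATH1 arrays (Affymetrix), with 6 µg of total RNA labelled per array, per the labels. The deposited intensities, on a linear scale, were summarized to 1 value per probe set with MAS5 by the authors, per the submitters' processing notes. The sources used here give no MAS5 version. Of 22810 deposited probe sets, the 64 controls were set aside. No 2 arrays were identical. The chl1-5 T0.5 array of replicate 1 held 2 values of 0.

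From these deposited values log2 signals were computed here with a floor of 0.1. A probe set was tested if its signal reached the array's 40th percentile on 3 or more of the 12 arrays, which left 14291. Using limma 3.58.1 under R 4.3.3, a linear model with empirical Bayes moderation (eBayes with trend) was fitted to the 4 group means with the replicate number as a block. Tests were two-sided, with Benjamini-Hochberg adjustment over all 14291. Adjusted p-values and SE are limma's, and log2 differences are chl1-5 minus wild type. The steps were tested on simulated data. With differences of 0.5, 1 and 2 on the log2 scale set in at T0.5, 32.8%, 80.6% and 98.5% were called, beside 6 false calls. Differences of 0.5 were thus missed more often than called. No detection calls were used. Alternatives changed the block, filter, floor, scaling, trend, arrays of the fit and replicates kept.

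The replicate numbers come from the titles and each marks an independent experiment with both genotypes on one mesh, per the labels. At T0.5, same-numbered arrays deviated together from their group means (r = 0.772, 0.405 and 0.682 across probe sets, against -0.629 to -0.0343 for different numbers). Deviations within a group cancel out, so positive values for the same number bring negative ones for different numbers, which are no separate evidence. The block of the fit was shared by the T0 and T0.5 arrays, and the T0 arrays were not checked in this way.

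Names came from the platform annotation and a TAIR10.1 gene table. Of 22746 probe sets, 13513 had 1 gene, 503 several and 8730 were not listed there. Of 160 listed genes 28 were tested. Named genes were the 12 largest called differences in each direction among single-locus probe sets that reached the 40th percentile on all 3 arrays of the brighter group. Where fewer passed, they were filled up by the smallest p. Up to 3 unnamed probe sets per direction, list members and loci near CHL1 were added. The lists and this comparison were chosen with earlier results of these data known. From the symbol families, CYP71, CYP59, HISN5B and SWEETIE were removed as wrong matches.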

Additional observations from a re-analysis of the deposited data

Results flagged for a closer look

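For 6 named genes the genotype difference after nitrate was of another size than the one before nitrate, by the test of the difference itself (limma, n = 3 arrays per group). The T0.5 difference minus the T0 difference was -1.72 for AT5G19970 (adjusted p = 0.00075), -2.05 for AT5G01740 (adjusted p = 0.00591), -1.47 for GLYK (adjusted p = 0.00724), -1.38 for AT2G48080 (adjusted p = 0.0297), -0.9997 for AT3G16560 (adjusted p = 0.0388) and -1.03 for AT1G73920 (adjusted p = 0.0436). AT5G19970 passed in 15 of 17 alternatives (adjusted p up to 0.242), AT5G01740 and GLYK in 13 (adjusted p up to 0.242 and 0.723), and AT2G48080, AT3G16560 and AT1G73920 in 7, 6 and 5 (adjusted p up to 1.00, 1.00 and 0.732). With no replicate block only AT5G19970 of the 6 passed (limma, adjusted p = 0.00679). AT5G01740 (adjusted p = 0.134), GLYK (0.305), AT3G16560 (0.305), AT1G73920 (0.240) and AT2G48080 did not pass in that fit. AT5G01740 also did not pass without all arrays of any 1 replicate number. All 6 genes kept a negative sign in each alternative run. Before nitrate GLYK stood at 0.32, higher in chl1-5 but not passing. Of single T0.5 arrays, leaving out wild-type replicate 2 ended the call of GLYK, any array other than wild-type replicate 3 that of AT2G48080, and any of the 6 those of AT3G16560 and AT1G73920.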

How the results depend on the processing

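The 60 calls after nitrate (57 lower, 3 higher) became 156 (131 lower, 25 higher) in a fit of the T0.5 arrays alone and 32 (31 lower, 1 higher) with no replicate block, and 1 higher call was left with eBayes without trend. The T0.5 counts with another filter, floor or scaling were within 1.5 times. Leaving out replicates or single T0.5 arrays gave 6 to 55 calls, 6 to 53 lower and 0 to 4 higher, 2 to 4 calls before nitrate, and 0 to 15 for the change in difference. The 4 calls before nitrate became 2 with the filter at the 60th percentile. The 17 calls for the change in difference became 7 with eBayes without trend and 5 with no replicate block. The median difference of the probe sets with an average rise of at least 4-fold ran from -0.63 to -0.26 over these leave-outs, and that of the 358 with a rise of at least 2-fold, -0.17, from -0.31 to -0.0199, the last without the chl1-5 array of replicate 1. The causes were not tested. Of the 60, 54 to 60 were still called with another filter, floor or scaling or in the T0.5 arrays alone, of the 58 to 60 present. All named genes called kept their sign in each alternative. Another scaling moved the median of all probe sets from 0.02 to -0.02 (median scaling) or 0.01 (quantile). Without detection calls, the sizes of ATKDSA2, QQS, 264371_at, 264348_at and HHO1 are limited by dim signals on 1 or more arrays.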
